A study of Mus musculus with 20 samples.

Results

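Bulk bone marrow RNA from mice carrying U2AF1(S34F) or U2AF1(WT) held less RNA of the MHC class II genes in the mutant groups. In sudemycin D6-treated U2AF1(S34F) mice all 10 genes described here were lower than in vehicle-treated U2AF1(WT) mice (FDR<10%). Of all 14761 genes tested there, 25.1% were lower at that threshold and 50.2% were called in either direction. Sex and genotype differed together and cannot be told apart. The 10 genes were chosen by name: the chains of the classical class II molecules (*H2-Aa*, *H2-Ab1* and *H2-Eb1*), the invariant chain (*Cd74*), the non-classical class II genes (*H2-DMa*, *H2-DMb1*, *H2-DMb2*, *H2-Oa* and *H2-Ob*) and the class II transactivator (*Ciita*). These 10 of the 37620 genes of the deposited count table mapped to 11 Ensembl identifiers, since 2 carry the symbol *Ciita*. All 10 passed the filter on low counts in every comparison.

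The series asked how a spliceosome modulator, sudemycin D6, and a mutation of the splicing factor U2AF1 act on RNA in marrow, separately and together. There were 20 mice in 4 groups of 5: U2AF1(WT) with vehicle, U2AF1(WT) with sudemycin D6, U2AF1(S34F) with vehicle and U2AF1(S34F) with sudemycin D6. Every mouse was a recipient of transplanted marrow from transgenic donors that also carried rtTA, the doxycycline-dependent activator of the transgene. After more than 6 weeks of engraftment, all mice, controls included, were given doxycycline chow (625 ppm) for 7 days, and drug or vehicle was infused through an intrajugular catheter over the last 5 of these days. Donor marrow was pooled before transplantation, so p-values measure the spread between recipients, and cells of the irradiated host may remain. The samples carry numbers within their groups, and mice are named here by group and number.

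Gene totals were 41145892 to 62138138 reads per mouse, and the labelled bone marrow was borne out by neutrophil, erythroid, monocyte and B-cell transcripts in every mouse. *U2af1* counts do not tell the transgene alleles apart; its level rose under the S34F transgene from 36.1 ± 1.38 to 51.0 ± 3.32 CPM (CPM, counts scaled to the size of the library; mean ± SD, n = 5) under vehicle and from 42.7 ± 3.88 to 54.7 ± 2.79 CPM under sudemycin D6. *Xist* was at 1317 ± 231 and 1143 ± 193 CPM in the U2AF1(WT) groups and at 0.0700 ± 0.0367 and 0.0735 ± 0.0455 CPM in the U2AF1(S34F) groups, while *Ddx3y*, a Y-linked gene, was listed at 0 in all U2AF1(WT) mice and at 64.8 ± 15.1 and 65.2 ± 3.01 CPM in the mutant groups. Sex and genotype therefore cannot be told apart in any comparison of genotypes. Libraries 8 and 9 of sudemycin-treated U2AF1(WT) mice stood apart from libraries 6, 10 and 12 of that group. The chi-square per gene was 85.1 to 180.0, against 21.8 to 64.99 among the other 3. Library 2 of vehicle-treated U2AF1(WT) mice differed from its group by 77.4 to 158.3. In U2AF1(S34F) mice, library 7 under vehicle differed from its group by 51.7 to 139.6, and libraries 10 and 12 under drug differed from each other by 118.4.

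MHC class II molecules display peptides from the endocytic pathway to CD4+ T cells. An alpha and a beta chain assemble on the invariant chain, which steers them to endosomes, where H2-DM exchanges the remnant of the invariant chain for a peptide and H2-DO restrains H2-DM. Transcription of these genes depends on CIITA, a co-activator that binds no DNA itself but docks on RFX, CREB and NF-Y factors held at the X and Y boxes of their promoters. In marrow the genes are known mainly from B-lineage cells, dendritic cells and some monocytes and macrophages.

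The letters of this layout were found as a pair in the proximal promoters of 4 members. These stretches are printed to show what the members share and where they differ. The stretch of *H2-Aa* is printed with them, where only the letters of the Y box matched. The RefSeq promoter table (build GRCm38.p6, 250 bases before to 50 after the start) held 7 of the 10 members, with 8 promoters. *H2-Ab1*, *Cd74* and *Ciita* were without an entry. The letters AACNNATG, from the core of the X box, and ATTGG, the Y box read as the CCAAT motif on its other strand, were searched on both strands and do not overlap each other. Capitals mark these letters, and each run reads 5′ to 3′ on the strand of the gene.
H2-Eb1, chr17:34305770-34305820 (+): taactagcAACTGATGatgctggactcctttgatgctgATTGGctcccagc
H2-Ob, chr17:34238812-34238860 (+): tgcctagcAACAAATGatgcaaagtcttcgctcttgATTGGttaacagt
H2-DMb1, chr17:34153091-34153142 (+): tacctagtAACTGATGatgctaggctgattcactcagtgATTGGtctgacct
H2-DMb2, chr17:34145120-34145171 (+): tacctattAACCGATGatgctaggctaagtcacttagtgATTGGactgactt
H2-Aa, chr17:34287859-34287914 (-): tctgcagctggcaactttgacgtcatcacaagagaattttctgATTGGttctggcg

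In the first 4 the motifs lay on the strand of the gene with 20 to 23 bases between them, and the X core began 85 to 121 bases before the start. *H2-Aa* held ATTGG alone, 48 bases before its start, as did *H2-Oa* and the second promoter of *H2-DMa*; the first promoter of *H2-DMa* held neither motif. AACNNATG occurred in 8.86% and ATTGG in 37.4% of all 32851 promoters of the same length, whereas the pair on 1 strand with 15 to 30 bases between them occurred in 42 (0.128%). A match of letters is a description and not a bound site. Nor does a missing match of these exact letters show that an X box is missing.

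Levels can be compared between genes only per length, and on that scale (RPKM, reads scaled by library size and by exon length in kilobases) *Cd74* was the highest member in every group, at 206 ± 76.8 RPKM in vehicle-treated U2AF1(WT) mice. *H2-Aa* at 64.1 RPKM, *H2-Eb1* at 63.0 and *H2-Ab1* at 54.7 followed in that group. The mean difference between *H2-Aa* and *H2-Eb1* was smaller than their spread, and their order was exchanged in sudemycin-treated U2AF1(WT) mice. The editing subunits *H2-DMa*, *H2-DMb1* and *H2-DMb2* were at 19.8, 17.0 and 9.39 RPKM, and *H2-Ob*, *Ciita* and *H2-Oa* were lowest at 6.45, 4.91 and 3.36 RPKM. *Cd74* lies on chromosome 18 and *Ciita* on chromosome 16 (mm9 10480237-10527657, plus strand), whereas the others lie within the class II region of chromosome 17, from *H2-Oa* (start 34229285) to *H2-Eb1* (end 34453144). The spans of *H2-Aa* and *H2-Ab1* overlap on opposite strands, and *H2-DMb1* and *H2-DMb2* are close paralogs whose reads the counting could have shared, so the split within each pair is uncertain.

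**Figure D1:**
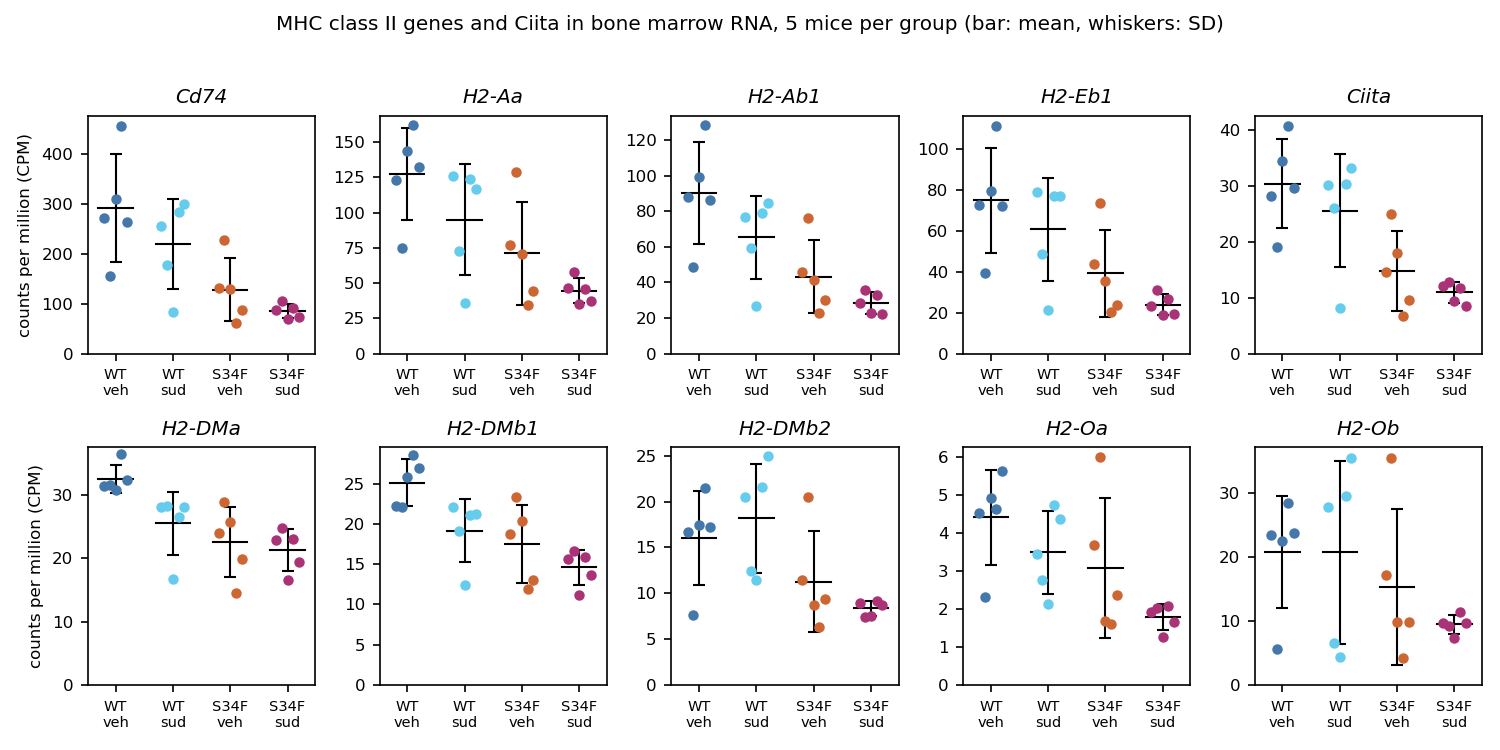
Level of each of the 10 genes (CPM, linear axes from 0) in each of 20 mice, by group (WT, U2AF1(WT); S34F, U2AF1(S34F); veh, vehicle; sud, sudemycin D6), with a point for each mouse, a bar at the mean and whiskers for the SD. The group means of *Cd74*, the chains and *Ciita* step down from left to right, and the 5 sudemycin-treated U2AF1(S34F) mice lie close together, with *Cd74* at 69.7 to 105 CPM.

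Under vehicle, the genotypes were compared without drug, and mutation and sex differed together. Of the 10 genes, 7 were lower in U2AF1(S34F) than in U2AF1(WT) marrow: *Cd74*, the 3 classical chains, *Ciita*, *H2-DMa* and *H2-DMb1*. Their log2 fold changes ran from -1.21 to -0.54, which is 2.32-fold to 1.45-fold lower. Across the transcriptome 39.5% of 14817 tested genes were called in this comparison (edgeR's quasi-likelihood test, FDR<10%), and 19.8% of the tested genes were called lower, so calls as such were common. The median log2 fold change of the 10 genes was -0.70, against 0.00 over all genes tested.

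*Cd74*, the invariant chain, was at 272, 155, 309, 456 and 264 CPM in vehicle-treated U2AF1(WT) mice 1 to 5 and at 132, 227, 129, 61.3 and 87.9 CPM in vehicle-treated U2AF1(S34F) mice 1, 3, 5, 7 and 11. The mutant mice were lower save for mouse 3, which lay above U2AF1(WT) mouse 2, so the groups overlapped through these animals. *Cd74* fell by 1.21 ± 0.37 on the log2 scale (± SE, adjusted p = 0.0344). *H2-Ab1*, the beta chain of the I-A molecule, was at 88.2, 48.6, 98.9, 128 and 86.1 CPM against 46.0, 76.0, 41.1, 22.6 and 29.95 CPM. Mutant mouse 3 was again the highest of its group and lay within the range of the controls, and the other 4 were below every control. *H2-Ab1* fell by 1.08 ± 0.34 (adjusted p = 0.0391). Its partner *H2-Aa*, the alpha chain, was at 123, 74.7, 144, 162 and 132 CPM against 76.9, 129, 70.4, 34.7 and 44.6 CPM. Here 3 mutant mice were below every control, and the fall of 0.86 ± 0.34 only just passed the threshold (adjusted p = 0.0870). *H2-Eb1*, the beta chain of the I-E molecule, was at 72.4, 39.4, 79.4, 111 and 71.9 CPM against 43.8, 73.4, 35.2, 20.04 and 23.6 CPM, with a fall of 0.95 ± 0.38 (adjusted p = 0.0876). The calls of *H2-Aa* and *H2-Eb1* were each lost without any of 8 of the 10 mice, with adjusted p-values of 0.125 to 0.192 and 0.122 to 0.205. *H2-Ea*, the alpha chain of I-E, is known to be silent in the H2-b haplotype of C57BL/6 mice, and it had 3 reads in U2AF1(WT) vehicle mouse 2 and 0 in every other mouse.

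*Ciita*, on which the others depend, was at 28.2, 19.0, 34.4, 40.8 and 29.7 CPM in the controls and at 14.6, 24.9, 18.1, 6.67 and 9.58 CPM in the mutant mice. Again 4 mutant mice were below every control and mouse 3 was within their range. *Ciita* fell by 1.06 ± 0.33 (adjusted p = 0.0376), close to the change of the chains. The other identifier with this symbol, a short locus within the gene that covers 1 of its alternative first exons, was at 1.37 and 0.571 CPM and fell by 1.22 (adjusted p = 0.0231).

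Of the non-classical genes, *H2-DMa*, the alpha chain of the peptide editor H2-DM, was at 31.5, 31.5, 30.9, 36.4 and 32.4 CPM against 24.0, 29.0, 25.7, 14.5 and 19.97 CPM. It was the single member whose groups did not overlap under vehicle. Of 12263 genes with a mean of at least 1 CPM, 22.7% did not overlap and 11.3% were lower without overlap. *H2-DMa* fell by 0.54 ± 0.14 (adjusted p = 0.0124), less than *Cd74*. *H2-DMb1*, a beta chain of H2-DM, was at 22.2, 22.1, 25.9, 28.6 and 27.0 CPM against 18.7, 23.3, 20.3, 11.9 and 13.1 CPM and also fell by 0.54 ± 0.16 (adjusted p = 0.0238). *H2-DMb2*, the other beta chain, differed by -0.53 ± 0.33 (adjusted p = 0.252), *H2-Oa*, the alpha chain of the H2-DM modulator H2-DO, by -0.53 ± 0.35 (adjusted p = 0.264), and *H2-Ob*, its beta chain, by -0.46 ± 0.58 (adjusted p = 0.584), none past the threshold. Without U2AF1(S34F) vehicle mouse 3, the highest of its group for all 10 genes, *H2-DMb2* and *H2-Oa* were called as well, and *H2-DMb2* also without U2AF1(WT) vehicle mouse 2.

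Under sudemycin D6, 8 of the 10 genes were lower in U2AF1(S34F) marrow, with the exceptions of *H2-DMa* and *H2-Ob*. In this comparison 36.8% of 14677 genes were called and 19.6% were lower. The median of the members was -1.13, against -0.03 over all genes. The falls of *Cd74* (1.38 ± 0.28, adjusted p = 0.00485), *H2-Eb1* (1.36 ± 0.30, adjusted p = 0.00746), *H2-Ab1* (1.21 ± 0.26, adjusted p = 0.00645) and *H2-Aa* (1.10 ± 0.29, adjusted p = 0.0169) amounted to 2.60-fold, 2.56-fold, 2.31-fold and 2.14-fold. Under vehicle the same 4 genes had fallen by 0.86 to 1.21.

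*Cd74* was at 256, 177, 83.0, 282 and 299 CPM in sudemycin-treated U2AF1(WT) mice 6, 8, 9, 10 and 12 and at 87.2, 105, 69.7, 90.1 and 72.6 CPM in sudemycin-treated U2AF1(S34F) mice 2, 6, 9, 10 and 12. The treated mutant mice were close to each other, and the groups overlapped only through U2AF1(WT) mouse 9, the lowest of its group for all 10 genes. *Ciita* was at 30.1, 26.0, 8.17, 30.3 and 33.3 CPM against 12.2, 12.8, 9.41, 11.8 and 8.57 CPM, so that mouse 9 lay below every treated mutant mouse. *Ciita* fell by 1.23 ± 0.30 (adjusted p = 0.0101). *H2-DMb2* was at 20.5, 12.5, 11.4, 21.6 and 24.9 CPM against 8.93, 7.44, 7.58, 9.16 and 8.77 CPM. Its ranges did not overlap, and it fell by 1.12 ± 0.20 (adjusted p = 0.00224). *H2-Oa* was at 3.44, 2.77, 2.13, 4.74 and 4.37 CPM against 1.93, 2.03, 1.27, 2.09 and 1.65 CPM. Its ranges likewise did not overlap, and it fell by 0.95 ± 0.23 (adjusted p = 0.0109). In this comparison 22.2% of 12183 genes with a mean of at least 1 CPM did not overlap, and 10.3% were lower without overlap.

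*H2-DMb1* fell by 0.40 ± 0.16 with an adjusted p of 0.0801, and this call was lost without any of 8 of the 10 mice (adjusted p of 0.107 to 0.176). *H2-DMa* differed by -0.26 ± 0.15 (adjusted p = 0.211). *H2-Ob* had a wide spread, with 27.8, 6.56, 4.31, 29.6 and 35.5 CPM in U2AF1(WT) against 9.70, 9.18, 7.38, 11.5 and 9.70 CPM in U2AF1(S34F). U2AF1(WT) mice 8 and 9 were below all treated mutant mice and mice 6, 10 and 12 above them, and the difference of -1.14 ± 0.48 missed the threshold (adjusted p = 0.101). With the libraries of mice 8 and 9 left out, an alternative chosen after seeing the data, all 10 genes were called lower, with *Cd74* at -1.71 and *H2-Ob* at -1.69.

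Sudemycin D6 against vehicle changed no member past the threshold within either genotype. In U2AF1(WT) mice 3.07% of 14763 genes were called and 0 of the 10 members by edgeR or by DESeq2. By edgeR an unadjusted p under 0.05 was found for 1959 of the 14763 genes and for 2 of the members. These were *H2-DMa* (-0.37 ± 0.13) and *H2-DMb1* (-0.41 ± 0.15). *H2-DMa* went from 30.9 to 36.4 CPM under vehicle to 16.8 to 28.3 CPM under drug without overlap. Of 12301 genes with a mean of at least 1 CPM, 4.27% did not overlap and 2.36% were lower without overlap. *Cd74* differed by -0.42 ± 0.35 and *Ciita* by -0.27 ± 0.33, and the median of the members was -0.36. Without mice 8 and 9, *Cd74* differed by -0.06 and *Ciita* by 0.04, and *H2-Eb1*, *H2-DMb2* and *H2-Ob* were higher under drug by 0.05, 0.48 and 0.58, again with no call. The negative sign in U2AF1(WT) mice thus rested on these 2 libraries for *Ciita* and *H2-Eb1*. With all mice *H2-Ob* differed by -0.01 ± 0.62, and its sign changed under 8 alternatives.

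In U2AF1(S34F) mice 10.8% of 14714 genes were called, and again 0 of the 10 members by edgeR or DESeq2. All 10 had a negative difference. *H2-Oa* (-0.77 ± 0.33) and *H2-Eb1* (-0.72 ± 0.32) had an unadjusted p under 0.05 by edgeR, as did 3299 of the 14714 genes tested. *Cd74* differed by -0.59 ± 0.29 and *Ciita* by -0.43 ± 0.30. These values rested in large part on vehicle mouse 3, without which *H2-Oa* differed by -0.38, *H2-Eb1* by -0.37, *Cd74* by -0.28, *Ciita* by -0.16 and *H2-Ob* by -0.11. The median of the members was -0.60. What differed in appearance was the spread: as a share of the mean, the SD over 5 mice had a median over the members of 29.98% in U2AF1(WT) with vehicle, 37.6% in U2AF1(WT) with drug, 49.1% in U2AF1(S34F) with vehicle and 16.9% in U2AF1(S34F) with drug. In CPM, the smallest SD stood in the last group for 9 of the 10 genes. As a share of the mean, the SD was smaller in U2AF1(WT) with vehicle for *H2-DMa* (6.87% against 15.5%) and *H2-DMb1* (11.6% against 15.1%). These values are a description for which no test was run.

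The interaction, which asks whether the drug acted otherwise in mutant than in U2AF1(WT) mice, was called for 0.013% of 15392 genes and for 0 of the 10 members. By edgeR 0 members had an unadjusted p under 0.05, against 1144 of the 15392 genes, and DESeq2 also called 0 members. The estimates ran from -0.69 ± 0.80 for *H2-Ob* to 0.26 ± 0.22 for *H2-DMa*, with *Cd74* at -0.18 ± 0.49 and *Ciita* at -0.18 ± 0.47. A difference between genotypes in the response to drug was not shown, nor was its absence, since an error of 0.49 leaves room for changes of the size seen between genotypes. Over both genotypes, with genotype as a term, 15.2% of 14659 genes were called for the drug and 7.51% were lower. *H2-DMb1* alone of the members was called (-0.32 ± 0.12, adjusted p = 0.0892), and the call was lost without libraries 8 and 9 and without any of 12 of the 20 mice (adjusted p of 0.101 to 0.170).

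When vehicle-treated U2AF1(WT) mice were set against sudemycin-treated U2AF1(S34F) mice, all 10 genes were lower, where 50.2% of 14761 genes were called and 25.1% were lower. The median of the members was -1.38, and 8 of the 10 genes did not overlap between groups, where 26.4% of 12207 genes with a mean of at least 1 CPM did not overlap and 12.9% were lower without overlap. *Cd74* fell by 1.78 ± 0.24, a 3.43-fold difference, *H2-Ab1* by 1.67 ± 0.23, *H2-Eb1* by 1.65 ± 0.24 and *H2-Aa* by 1.51 ± 0.19. *Ciita* fell by 1.47 ± 0.18, with 19.0 CPM in the lowest control and 12.8 CPM in the highest treated mutant mouse. *H2-Oa* fell by 1.28 ± 0.22 and *H2-Ob* by 1.12 ± 0.35, while *H2-DMb2* fell by 0.93 ± 0.21, *H2-DMb1* by 0.78 ± 0.11 and *H2-DMa* by 0.61 ± 0.10. *H2-DMb2* and *H2-Ob* overlapped through U2AF1(WT) vehicle mouse 2, at 7.58 and 5.65 CPM. The adjusted p-values of the 10 genes were 0.0254 or less. These comparisons share groups of mice and are not independent of each other.

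**Figure D2:**
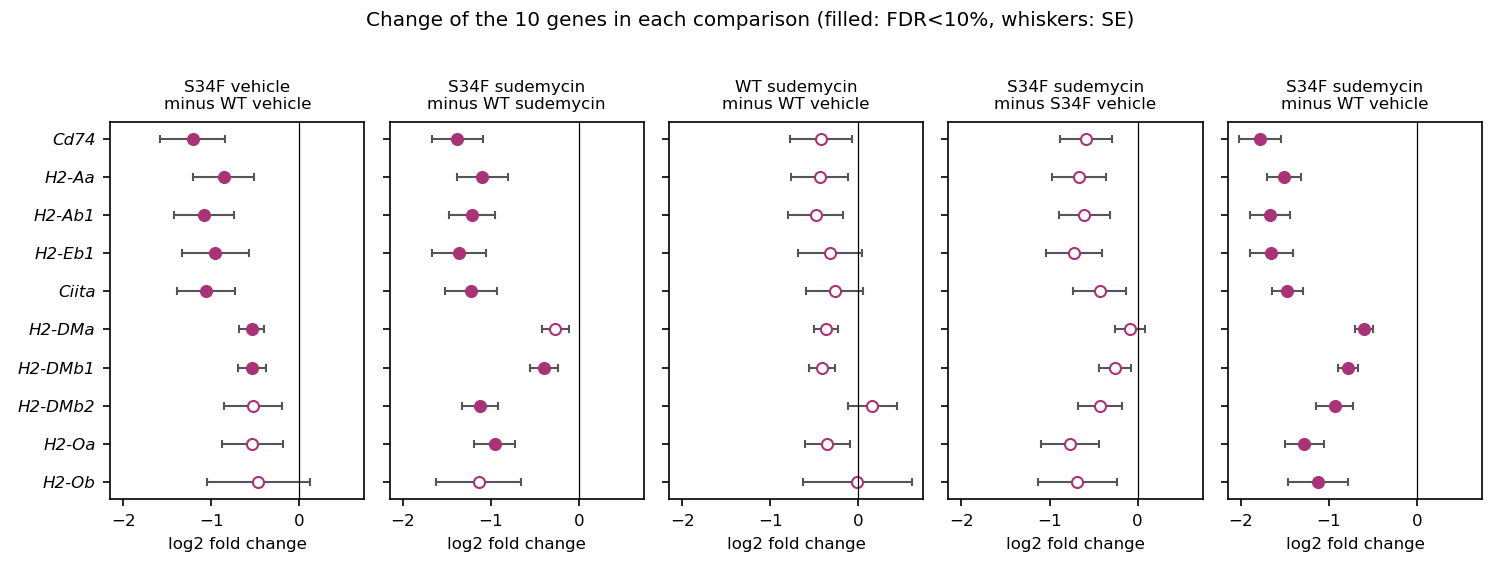
Change of each of the 10 genes (log2 fold change of the second group over the first, points with SE) in the 5 comparisons of groups, with filled points for genes called at FDR<10%. All 10 points are filled when mutation and drug are set against neither, and none within a genotype.

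Group means for 9 of the 10 genes took the order U2AF1(WT) with vehicle, U2AF1(WT) with drug, U2AF1(S34F) with vehicle, U2AF1(S34F) with drug. *Cd74*, for example, went 291 ± 108, 219 ± 89.5, 127 ± 63.0 and 84.9 ± 14.2 CPM, and *Ciita* 30.5 ± 8.05, 25.6 ± 10.1, 14.8 ± 7.20 and 10.96 ± 1.86 CPM. *H2-DMb2* did not keep the order, with 16.1 ± 5.11, 18.2 ± 5.94, 11.3 ± 5.48 and 8.38 ± 0.805 CPM. Between drug and vehicle under the same transgene, the neighbours in this order did not differ past the threshold for any of the 10 genes.

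The members did not shift by the same factor. Relative to *Cd74* on the RPKM scale, *H2-Aa* stood at 32.0%, 30.8%, 39.3% and 37.3% in the 4 groups in the order above, and *Ciita* at 2.45%, 2.64%, 2.63% and 2.94%. *H2-DMa* rose in this ratio from 10.7 ± 4.03% in vehicle-treated U2AF1(WT) mice to 21.7 ± 1.26% in sudemycin-treated mutant mice, where the lowest mouse had 20.3% and the highest vehicle-treated U2AF1(WT) mouse had 17.4%. *H2-DMb1* stood at 9.01%, 9.33%, 14.2% and 16.5%. *H2-DMb2* stood at 4.60%, 7.39%, 7.51% and 8.32%, although under sudemycin D6 it fell by about as much between genotypes as the chains did. No test was run on these ratios.

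Within groups, mice that were high for 1 member tended to be high for the others. Over the 20 mice, deviations of log2 CPM from the group mean had a Pearson r between 0.594 (*H2-DMa* with *H2-DMb2*) and 0.992 (*H2-Ab1* with *H2-Eb1*) among the 45 pairs of members. *Cd74* and *Ciita* had r = 0.963, *H2-DMa* and *H2-DMb1* 0.941, and *H2-DMb2* and *H2-Ob* 0.959. These values share the libraries and their cell make-up and are a description. U2AF1(WT) vehicle mouse 2 was the lowest of its group for 9 of the 10 genes and mouse 4 the highest for 9, and U2AF1(S34F) vehicle mouse 7 was the lowest of its group for all 10.

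Outside the members, among 12227 genes with a mean of at least 1 CPM, the deviations most like those of *Cd74* and the 3 classical chains were those of *5730409E04Rik* (r = 0.963), *Scd1* (0.939), *Trim7* (0.937), *Cd83* (0.937), *Mllt6* (0.936), *Lrrc16a* (0.935), *Cd22* (0.933), *Gimap1* (0.933), *Cxcr5* (0.932) and *Fcrla* (0.930). *Cd83*, *Cd22*, *Cxcr5* and *Fcrla* are known from B cells, and *Cd83* also from dendritic cells. Most like *Ciita* were *Klhl8* (r = 0.926), *Heatr2* (0.919), *Asb13* (0.908), *Tmcc3* (0.907) and *Scamp4* (0.907).

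B-cell transcripts were called lower beside the class II genes in some comparisons and not in others. In bulk marrow, fewer cells of a type and less RNA per cell cannot be told apart. The summed level of 7 pan-B markers was 42.9 to 142.7 CPM in vehicle-treated U2AF1(WT) mice, 26.8 to 163.6 CPM with drug, 18.4 to 144.6 CPM in mutant mice on vehicle and 33.9 to 50.1 CPM in mutant mice on drug. None of these markers was at 0 throughout. Under vehicle 0 of 7 pan-B markers were called by edgeR, although 0 had a positive difference and the median was -0.97. Of 9 mature B-cell markers 1 was called lower, namely *Fcrl1* (-0.31 ± 0.13). Among these 9, 1 had a positive difference and the median was -0.45. Under sudemycin D6, 6 of 7 pan-B markers were lower in mutant mice, among them *Cd79a* (-1.60 ± 0.44), a signalling chain of the B-cell receptor, and *Blnk* (-1.01 ± 0.39), an adaptor downstream of it. So were 5 of 9 mature B-cell markers, for example *Cd22* (-1.67 ± 0.48), an inhibitory receptor. With mutation and drug set against neither, 7 of 7 pan-B, 9 of 9 mature B-cell and 7 of 7 pro-B and pre-B markers were lower, with medians of -1.51, -1.11 and -2.06. *Rag1*, which cuts immunoglobulin genes in precursors, fell by 3.51 ± 0.49. Pro-B and pre-B markers were lower for 0 of 7 and 1 of 6 between genotypes under vehicle and under drug, but for 3 of 7 with drug in U2AF1(WT) mice, 4 of 7 with drug in U2AF1(S34F) mice and 6 of 7 over both genotypes, where 0, 0 and 1 of the 10 class II genes were called. *Dntt*, an enzyme that adds bases at immunoglobulin joints, fell by 1.61 ± 0.29 over both genotypes. The part of B-cell content in the class II differences was not tested.

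Markers of the other cells that carry class II were called in both directions, save plasmacytoid dendritic markers, which were called lower only. The 7 conventional dendritic markers summed to 57.1 to 88.9, 50.3 to 86.5, 79.8 to 106.3 and 58.2 to 80.5 CPM in the 4 groups. Under vehicle *Itgax*, the integrin CD11c, rose by a log2 fold change of 0.46 ± 0.14 in mutant mice while *Batf3*, a factor of cross-presenting dendritic cells, fell by 0.93 ± 0.29. With mutation and drug together 5 of 7 were lower and *Clec9a*, a receptor for dead cells, was higher (1.38 ± 0.19). Plasmacytoid dendritic markers were lower for 2 of 5 in mutant mice under vehicle and under sudemycin D6 and for 4 of 5 with both together, as in *Siglech* (-1.84 ± 0.34). Macrophage markers were called in both directions under vehicle, with *Adgre1*, the F4/80 antigen, lower (-0.52 ± 0.11) and *Vcam1* higher (0.71 ± 0.15). Of 5 monocyte markers 0 were higher and 2 lower in mutant mice under vehicle. *Csf1r*, the receptor for M-CSF, fell by 0.85 ± 0.13 and *Cx3cr1* by 0.95 ± 0.20. Under drug 2 were higher and 1 was lower, with a median of -0.01 over the 5. *Ccr2*, the receptor by which monocytes leave the marrow, was among the higher (1.36 ± 0.14). Of lists for cells not known for class II, neutrophil markers were higher for 5 of 10 under vehicle, with summed means of 68189 CPM in U2AF1(WT) and 105265 CPM in U2AF1(S34F) mice, and for 3 of 10 under drug. T and NK cell markers were higher for 3 and lower for 1 of 10 under vehicle and lower for 5 of 10 under drug, and erythroid markers were lower for 0 and 5 of 10. The part of these lists in the class II differences was not tested.

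**Figure D3:**
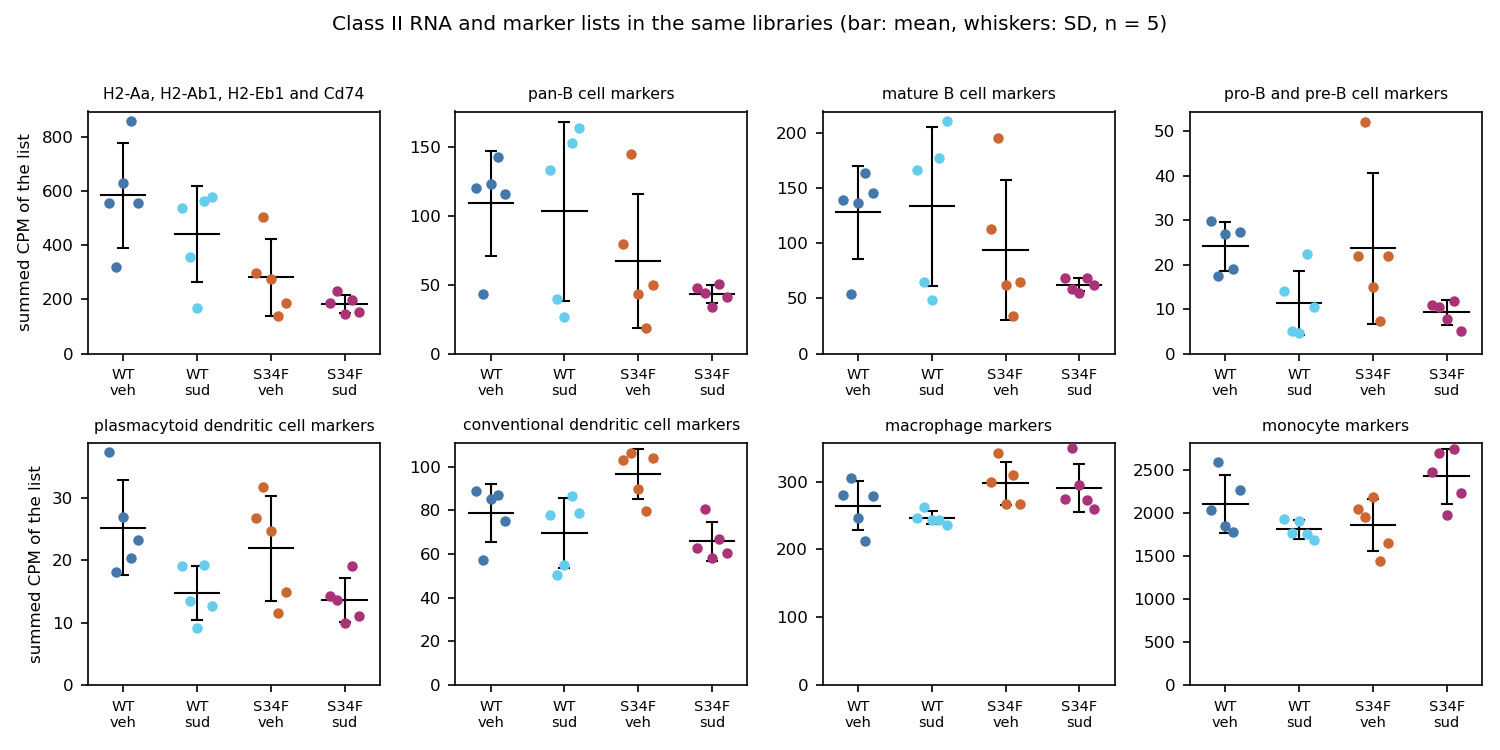
Summed level (CPM, linear axes from 0) of *H2-Aa*, *H2-Ab1*, *H2-Eb1* and *Cd74* and of 7 marker lists in each mouse, by group, with a bar at the mean and whiskers for the SD. The pan-B sum spans 18.4 to 144.6 CPM in the mutant mice on vehicle and 33.9 to 50.1 CPM in those on drug.

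The DNA-bound factors on which CIITA docks were called in either direction, by 0.36 or less. Of 7 genes, 2 were higher and 2 lower in mutant mice under vehicle, 2 higher and 0 lower under sudemycin D6 and 2 higher and 2 lower with both together. *Rfx5*, the subunit of RFX that carries the DNA-binding domain, was lower in mutant mice under vehicle (-0.19 ± 0.07, adjusted p = 0.0610) and with both together (-0.31 ± 0.07, adjusted p = 0.00521), with group means of 21.8 to 17.6 CPM. Its partners *Rfxap* and *Rfxank* were called in no comparison and differed by 0.09 or less in size. *Creb1*, which binds the X box with RFX, was higher in mutant mice in all 3 comparisons in which genotype differs (0.36 ± 0.08, 0.32 ± 0.07 and 0.31 ± 0.07). Of the NF-Y subunits, *Nfya* was lower (-0.31 ± 0.07) and *Nfyb* higher (0.25 ± 0.07) under vehicle.

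The co-activators that CIITA recruits were lower in mutant mice, 4 of 5 under vehicle and 3 of 5 under sudemycin D6. *Carm1*, an arginine methyltransferase, fell by 0.77 ± 0.11 under vehicle, and the acetyltransferases *Crebbp* and *Ep300* fell by 0.50 ± 0.10 and 0.50 ± 0.11. Under drug the changes were -0.48 ± 0.16, -0.29 ± 0.08 and -0.26 ± 0.08. Of 9 factors that act on the *Ciita* gene, 2 were lower under vehicle, namely *Irf4* (-0.97 ± 0.26) and *Prdm1* (-0.73 ± 0.17), a repressor of *Ciita* in plasma cells, and 1 was higher. Under sudemycin D6, 5 of 9 were lower, among them the B-lineage factors *Spib* (-1.39 ± 0.43) and *Pax5* (-1.62 ± 0.54), which also stand among the B-cell markers.

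Genes of the response to interferon-gamma, the main inducer of class II outside B cells, were called in both directions under vehicle. Of 14 genes 6 were higher in mutant mice, for example the GTPases *Iigp1* (1.81 ± 0.56) and *Gbp3* (0.52 ± 0.16), and 1 was lower, *Ifng* itself (-1.15 ± 0.35, with 0.822 and 0.352 CPM). Under drug 0 were higher and 3 were lower, with *Ifng* at -1.15 ± 0.28. Library 8 of sudemycin-treated U2AF1(WT) mice had a summed level of 1604 CPM for this list, against 626 to 783 CPM in the others of its group. The sums of the vehicle groups overlapped, at 704.6 to 761.1 CPM in U2AF1(WT) and 687.7 to 1272 CPM in U2AF1(S34F) mice. The part of this list in the class II differences was not tested.

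Steps around the class II molecule moved in either direction. Of 11 genes of peptide processing and surface turnover, 3 were lower and 1 higher in mutant mice under vehicle, with *Ctsl* (-0.37 ± 0.10) and *Ctsh* (-0.29 ± 0.09), lysosomal proteases, lower. Under sudemycin D6, 3 were higher and 2 lower, and *Ctsl* had the opposite sign (0.38 ± 0.12) beside *Ifi30* (0.54 ± 0.12), the lysosomal thiol reductase. *March1*, a ubiquitin ligase that removes class II from the surface, was lower in all 3 comparisons in which genotype differs (-0.36 ± 0.10, -0.24 ± 0.10 and -0.31 ± 0.09). Among 6 co-stimulatory genes, *Cd80* was lower under vehicle (-0.81 ± 0.13) and under drug (-0.62 ± 0.10), whereas *Cd86*, the other ligand of CD28, was higher under drug (0.54 ± 0.16). *Cd274*, which encodes PD-L1, fell by 1.52 ± 0.33 under drug.

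Genes that lie in the class II region but were not chosen as members were called less evenly. Of 8 tested, 0 were called under vehicle by edgeR, 5 were lower under sudemycin D6 and 6 were lower and 1 higher with both together. *H2-Eb2*, a second beta chain of I-E type, had a mean of 2.48 CPM in vehicle-treated U2AF1(WT) mice and of 1.38 CPM in vehicle-treated mutant mice, and with both together it showed a fall of 1.42 ± 0.34. *Tap2*, which feeds the class I pathway, fell by 0.66 ± 0.18 under drug.

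The invariant chain has a longer splice form with an extra exon that encodes a thyroglobulin domain, and junction reads showed it in every mouse, with an inclusion of 7.17 to 13.8%. The series held 26 junctions of *Cd74* with 323003 reads, of which 14 had both ends annotated. The junction that skips the exon (mm9, 192 bp, 60970948-60971139, between exons that end at 60970072 and start at 60971513) held 41664 reads, 12.9% of these. Of unannotated junctions 1 reached 0.1% of the reads, from 60971575 to 60971958 with 441 reads (0.137%), and 11 rarer ones held 183 reads.

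Inclusion of this exon, as Ψ (the mean of the inclusion reads at both flanks over that mean plus the skipping reads), was 9.66, 11.96, 12.4, 11.5 and 11.1% in vehicle-treated U2AF1(WT) mice and 11.7, 12.9, 9.02, 12.3 and 8.30% with drug. In U2AF1(S34F) mice it was 10.5, 8.57, 11.3, 10.9 and 10.6% under vehicle and 12.1, 13.8, 11.4, 9.86 and 7.17% with drug. All groups overlapped, with means of 11.3 ± 1.04, 10.8 ± 2.05, 10.4 ± 1.06 and 10.9 ± 2.50%, each mouse resting on 886 to 6783 reads. The differences (ΔΨ) in the 5 comparisons were -0.93 to 0.47 percentage points and none was called (edgeR, FDR of 0.296 to 0.913; exact permutation p of 0.206 to 1). Between genotypes under vehicle, where *Cd74* RNA was 2.32-fold lower, ΔΨ was -0.93 points (-1.34 to -0.47 with a mouse left out). More reads joined the exon to its upstream than to its downstream neighbour (6407 against 3789), so the absolute Ψ depends on which flank is read.

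**Figure D4:**
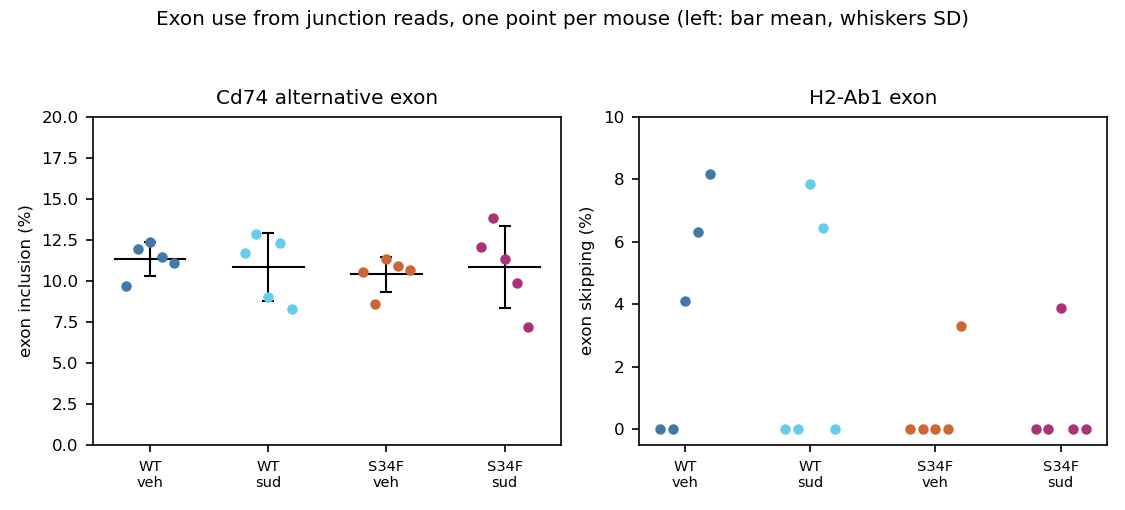
Inclusion (Ψ, %) of the *Cd74* exon in each mouse, by group, with a bar at the mean and whiskers for the SD. Beside it is skipping (100 minus Ψ, %) of the *H2-Ab1* exon in each mouse, as points without bar or whiskers. The *Cd74* exon lies between 7.17 and 13.8% with all groups overlapping. The 13 mice with a Ψ of 100% for the *H2-Ab1* exon had no skipping reads.

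Over the members 26 cassette events of 24 exons could be tested in at least 1 comparison, in 8 of the 10 genes and with none in *H2-Eb1* or *H2-DMb1*. In all, 1 of 18 was called between genotypes under vehicle, where 3.46% of 53049 events were called, and 0 of 19 under sudemycin D6 (3.06% of 53577). For the drug 0 of 21 were called in U2AF1(WT) mice (0.881% of 50716) and 0 of 16 in U2AF1(S34F) mice (1.3% of 54796). With both together 1 of 18 was called (4.78% of 55553). At an unadjusted p under 0.05 the numbers in the same order were 3, 1, 0, 0 and 1. The calls of the members were thus few, and both concerned the same exon of *H2-Ab1*.

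This *H2-Ab1* exon (mm9 chromosome 17, 34404868-34404978, 111 bp), described because it was called, had skipping reads in a minority of mice. Skipping reads were 0 in 13 mice with 319 to 1638 junction reads each, and were 28, 78 and 65 in U2AF1(WT) vehicle mice 3, 4 and 5, 22 and 58 in U2AF1(WT) drug mice 9 and 10, 11 in U2AF1(S34F) vehicle mouse 11 and 7 in U2AF1(S34F) drug mouse 9. These 7 mice lay at Ψ of 91.8 to 96.7% and all others at 100%, and the groups overlapped. Why the other mice had 0 skipping reads at their depth was not tested. Mean Ψ was 96.3 ± 3.68, 97.1 ± 3.95, 99.3 ± 1.48 and 99.2 ± 1.73% in the 4 groups. The ΔΨ of 3.05 points between genotypes under vehicle had an edgeR FDR of 0.000256 but an exact permutation p of 0.167, and with both together the values were 2.94 points, 0.00300 and 0.167. The call was lost with limma (FDR of 0.675 and 0.657) and without any of 6 of the 10 mice under vehicle (FDR of 0.368 to 0.458) and any of 8 of the 10 mice in the other comparison (FDR of 0.191 to 0.590).

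*Ciita* has alternative promoters with separate first exons: pI is known from dendritic cells and macrophages, pIII from B cells and plasmacytoid dendritic cells and pIV from cells stimulated with interferon-gamma. Junctions into the shared exon 2 (acceptor at mm9 10501860) held 912 reads over all mice, 15 to 79 per mouse. The most upstream donor (10480519, pI-type by its place) gave 259 reads or 28.4%, the donor at 10488517 (pIII-type) 539 or 59.1%, the donor at 10489957 (pIV-type) 59 or 6.47%, and 6 other donors 55. The pIII-type exon was thus the most used in marrow.

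The pIII-type share was 50.7, 48.9, 58.1, 33.3 and 51.9% in vehicle-treated U2AF1(WT) mice and 69.6, 52.9, 53.3, 71.6 and 72.5% with drug. In mutant mice it was 80.0, 75.6, 77.8, 8.33 and 66.7% under vehicle and 91.3, 42.9, 48.4, 65.1 and 50% with drug. The mutant groups spread widely, and mouse 7 stood far below the others of its group. Pooled over mice the share was 48.7% (Wilson 95% interval 43.2 to 54.3%), 66.7% (60.8 to 72.0%), 66.1% (58.9 to 72.6%) and 58.6% (50.6 to 66.1%), where the intervals cover counting error only. The drug in U2AF1(WT) mice gave a difference of 15.4 points with an exact two-sided permutation p of 0.0476, which was 0.714 after adjustment over the 15 tests of first exons (the smallest p that 5 against 5 allows is 0.00794). No test passed the threshold after adjustment. The pI-type share had means of 32.0 ± 13.2, 26.9 ± 16.8, 30.2 ± 21.5 and 28.7 ± 13.4%, and the pIV-type share 11.3 ± 12.3, 3.45 ± 5.12, 1.37 ± 2.41 and 8.58 ± 10.4%.

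**Figure D5:**
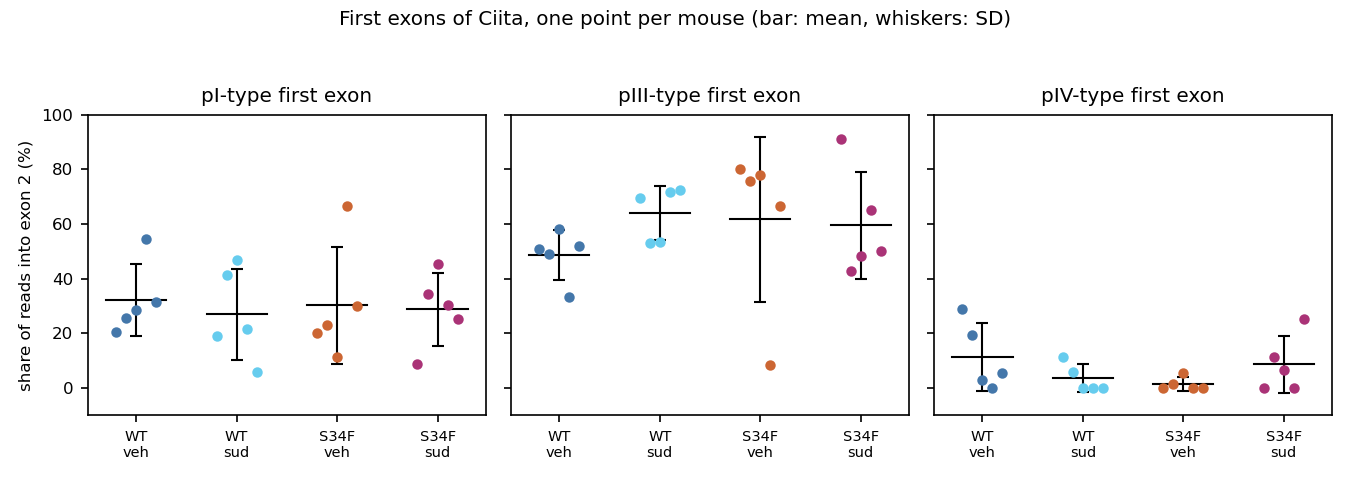
Share of junction reads into exon 2 of *Ciita* that come from the pI-type, pIII-type and pIV-type first exons (%), in each mouse by group, with a bar at the mean and whiskers for the SD. The pIII-type share lies between 8.33 and 91.3% and overlaps between all groups.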

How the data were processed

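RNA of bulk bone marrow from 20 mice was ribosome-depleted and sequenced by the authors in stranded libraries of total RNA (paired reads of 126 bases). Reads were aligned to mm9 with TopHat2 2.0.8 and handled with SAMtools, per the submitters' processing notes; the counter of gene reads and its strand setting are not given in the sources used here. The deposited tables hold raw counts, not normalized, for 37620 genes (37205 with a symbol) and raw read counts for 554616 splice junctions, of which 245567 have both ends annotated. Gene totals were 41145892 to 62138138 and junction totals 34384214 to 64813149 per mouse. Within groups, no pair of libraries agreed within sampling noise (lowest chi-square per gene 19.0).

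Gene counts were tested in edgeR 4.0.16 (R 4.3.3; filterByExpr, TMM, robust quasi-likelihood fit, prior count 2) over all genes, for each pair of groups on its own mice, with Benjamini-Hochberg adjustment and calls at FDR<10%. Interaction and the drug over both genotypes used all 20 mice. DESeq2 1.42.0 (the study's tool) and limma 3.58.1 gave alternatives. Cassette exons were tested in edgeR on inclusion and skipping counts with 1 coefficient per mouse and a negative binomial dispersion of 0, a setting taken from an earlier analysis of these data, for events with a mean of at least 10 reads, and called at FDR<10% with a change over 1 percentage point. First exons of *Ciita* were compared by exact permutation. CPM and RPKM were computed from TMM-scaled library sizes. Exact tests used scipy 1.17.1 and figures matplotlib 3.10.9, under Python 3.11.15 with pandas 2.3.3; the fits were tested on simulated data. The members and gene lists were chosen with earlier results of these data known. All members are named, with at most 4 called genes of each list per comparison by smallest p, *Rfx5*, *Rfxap*, *Rfxank*, *H2-Ea* and *U2af1* always, and the genes most like the members; the sex-linked *Xist* and *Ddx3y* and the *H2-Ab1* exon were chosen after their values were seen. Alternatives covered normalization, filters, threshold, tool, 1 model for all groups, replicate number as a block, Ψ formula and each mouse left out; leaving out libraries 8 and 9 was chosen after seeing the data.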

Additional observations from a re-analysis of the deposited data

Results flagged for a closer look

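In 60 sets of 5 values (members' CPM and exon shares in each group), 7 held a mouse set apart from the other 4 by Dixon's test at 95%. Chance alone sets apart about 1 in 20 where values are continuous and sets independent. That does not hold for all sets here, since members were correlated and some shares were tied. *H2-DMa* was at 36.4 CPM in U2AF1(WT) vehicle mouse 4, against 30.9 to 32.4 CPM in the others, and at 16.8 CPM in U2AF1(WT) sudemycin mouse 9, against 26.6 to 28.3 CPM. *H2-Ob* was at 5.65 CPM in U2AF1(WT) vehicle mouse 2, against 22.5 to 28.4 CPM; the pan-B markers of that mouse summed to 42.9 CPM, the lowest of its group. Inclusion of the *H2-Ab1* exon was 96.7% in U2AF1(S34F) vehicle mouse 11 and 96.1% in U2AF1(S34F) sudemycin mouse 9, with 100% in all others of these groups. With the other 4 values tied, any differing value is set apart. In U2AF1(S34F) vehicle mice, the pIII-type share of *Ciita* was 8.33% in mouse 7, against 66.7 to 80.0%, and the pIV-type share was 5.56% in mouse 5, which is 1 read of 18, against 0 to 1.28%. The causes were not tested.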

How the results depend on the processing

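Of 1486 values of the members under alternatives, 1375 kept direction and side of the threshold, 63 lost and 20 gained a call and 28 changed sign. Counts of members called were 5 to 7 under vehicle (5 to 9 with a mouse left out), 7 to 10 under sudemycin D6, 9 to 10 with both together, and 0 within either genotype and for the interaction. For the drug over both genotypes the count of 1 became 3 with DESeq2, 0 without a filter, at FDR<5% and without libraries 8 and 9, and 0 to 5 with a mouse left out. Without a filter, *H2-Aa* and *H2-Eb1* under vehicle (adjusted p = 0.158 and 0.154) and *H2-DMb1* under drug (0.108) lost their calls, as at FDR<5%; with both together *H2-Ob* lost its call in 1 model of all groups (0.137). Over all genes, the 453 calls for the drug in U2AF1(WT) mice were 819 with DESeq2, 243 at FDR<5% and 1072 in 1 model; the 1588 in U2AF1(S34F) mice were 826 at FDR<5% and 788 in 1 model; the 2227 over both genotypes were 1459 at FDR<5%; and the 2 of the interaction were 116 with DESeq2, 10 without a filter, 8 with at least 1 CPM in 5 mice and 13 without libraries 8 and 9.

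Some differences that passed no threshold changed sign. Without libraries 8 and 9 the drug in U2AF1(WT) mice gave 0.0540 for *H2-Eb1*, 0.58 for *H2-Ob* and 0.0389 for *Ciita*, the interaction of *H2-DMb1* was -0.0034, and *H2-Ob* was 0.0016 in 1 model. With a mouse left out, *H2-Ob* ranged from -0.29 to 0.25 and *H2-DMb2* from -0.0159 to 0.29 for the drug in U2AF1(WT) mice, *H2-DMa* from -0.21 to 0.0166 in U2AF1(S34F) mice and *H2-DMb2* from -0.22 to 0.0437 over both genotypes. The interaction ranged from -0.42 to 0.0797 for *H2-Aa*, -0.31 to 0.16 for *H2-Ab1*, -0.40 to 0.14 for *Cd74* and -0.37 to 0.0939 for *Ciita*, positive without U2AF1(S34F) vehicle mouse 3 and, for *H2-Ab1*, also without U2AF1(WT) vehicle mouse 2. The *Cd74* exon under vehicle differed by -1.51 points with undivided inclusion reads and by -1.34 to -0.47 with a mouse left out, and under sudemycin D6 it differed by -0.014 points with undivided inclusion reads and by -0.73 to 0.93 with a mouse left out; for the drug it ranged from -0.97 to 0.17 in U2AF1(WT) and -0.27 to 1.39 in U2AF1(S34F) mice, and from -1.2 to 0.46 with both together. The cause was not tested.

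Replicate numbers did not pair the mice: same-numbered mice had correlations of -0.11 to 0.21 over 7 pairs, not all over 0.1. With the replicate block, calls over all genes went from 5851 to 4628 under vehicle and from 5402 to 3718 under drug, the members called were 7 and 8, the *Cd74* exon differed by -0.93 and 0.006 points, and the *H2-Ab1* exon lost its call under vehicle (FDR 0.122). Reads into exon 2 of *Ciita* numbered 15 to 79 per mouse, which limits the precision of each share.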
